A study of Mus musculus with 8 samples.

Results

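The loci described are the regions of the mouse genome over which PIWI-interacting RNAs (piRNAs) were counted in wild-type testis. They were taken by a rule that used no measured value, which kept every locus present in the tables of both assays: all 94 of 94 loci named for a chromosome band and all 114 of 114 named for a gene. Each was measured in 2 small RNA libraries, which hold mature piRNAs, and in 2 rRNA-depleted long RNA libraries, which hold the precursor transcripts. For every locus the share of a library's counts that fell on it was taken, and the quantity reported is the log2 small RNA share minus the log2 long RNA share. A value of 0 means that a locus took equal shares of both assays, and a positive value means that it took more of the small RNA than of the long RNA. The 4 libraries came from testes of adult Exd2+/+ mice, the unedited controls, on the C57BL6 background, in a study of a genome-edited deletion in Exd2. Replicates are called biological by the submitters. The labels do not say whether the replicates of the assays came from the same animals. The 4 libraries of mice with the deletion were not used here. No gene that marks a testis cell type is among the loci, so the tissue label was not checked against markers.

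piRNAs guide PIWI proteins to complementary RNAs and are required for male fertility in mice. They are cut in series from long single-stranded precursors that RNA polymerase II transcribes. In mouse testis, pachytene piRNAs appear during meiosis from intergenic precursors, most of them switched on by the transcription factor A-MYB (MYBL1), while other piRNAs come from the transcripts of protein-coding genes, often from their 3′ untranslated regions. Divergent pairs, in which a shared promoter drives precursors in opposite directions, are known among the pachytene loci. Here small RNA means every small RNA counted at a locus and long RNA every longer RNA counted there. At loci over protein-coding genes, precursor and mRNA cannot be told apart.

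Band-named loci are written as 18-qE1-36451.1 and gene-named loci with the prefix pi-, as pi-Lpp.1. The sequences before the starts of 5 loci are given because they cover both name types at high, middle and low values of the difference. They were chosen after the values were seen and among loci with a promoter in RefSeq. Each is the 250 bases that lie before the RefSeq start (GRCm38.p6), 5′ to 3′ on the strand of the locus. Capitals mark every match to AACNG, the core of the MYB binding motif, or to its reverse complement CNGTT.
7-qD2-24830.3 (chr7:73816504-73816753, minus strand): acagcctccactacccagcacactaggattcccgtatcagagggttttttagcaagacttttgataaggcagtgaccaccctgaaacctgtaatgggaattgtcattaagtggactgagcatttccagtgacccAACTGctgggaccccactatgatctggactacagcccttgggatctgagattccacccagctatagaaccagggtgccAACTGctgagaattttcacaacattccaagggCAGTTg
17-qA3.3-26735.1 (chr17:27324946-27325195, plus strand): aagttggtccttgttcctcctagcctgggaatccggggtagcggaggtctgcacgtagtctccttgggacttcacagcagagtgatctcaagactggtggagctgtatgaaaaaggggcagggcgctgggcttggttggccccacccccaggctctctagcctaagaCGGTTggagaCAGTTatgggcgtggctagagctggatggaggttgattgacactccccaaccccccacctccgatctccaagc
7-qD2-40.1 (chr7:75782121-75782370, minus strand): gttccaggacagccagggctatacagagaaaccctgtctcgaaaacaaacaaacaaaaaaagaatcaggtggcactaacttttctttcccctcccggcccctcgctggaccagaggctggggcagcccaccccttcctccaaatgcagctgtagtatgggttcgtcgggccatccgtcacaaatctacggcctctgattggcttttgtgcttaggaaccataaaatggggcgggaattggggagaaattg
pi-Zfp382.1 (chr7:30121682-30121931, plus strand): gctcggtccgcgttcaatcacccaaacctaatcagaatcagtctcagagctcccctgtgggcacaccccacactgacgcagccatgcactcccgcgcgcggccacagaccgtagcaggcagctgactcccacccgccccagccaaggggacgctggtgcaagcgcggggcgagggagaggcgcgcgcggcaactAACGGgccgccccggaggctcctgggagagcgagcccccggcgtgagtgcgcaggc
pi-Lpp.1 (chr16:24393100-24393349, plus strand): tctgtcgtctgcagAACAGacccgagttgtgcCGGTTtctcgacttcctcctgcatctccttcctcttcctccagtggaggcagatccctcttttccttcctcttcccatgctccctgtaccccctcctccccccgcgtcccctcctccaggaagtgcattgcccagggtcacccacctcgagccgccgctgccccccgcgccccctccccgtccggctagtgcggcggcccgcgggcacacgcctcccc
The first and the second belong to band-named loci among the 10 richest in small RNA, 7-qD2-24830.3 and 17-qA3.3-26735.1, with differences of 1.11 and 1.00 and with 3 and 2 matches. The third belongs to 7-qD2-40.1, a band-named locus with a difference of -4.44, and holds 0 matches. It is not typical of band-named loci with low values. Of the 23 band-named promoters found at loci with a difference below 0, 21 held a match. The others belong to pi-Zfp382.1 (a difference of 0.09, 1 match) and pi-Lpp.1 (-10.25, 2 matches).

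A RefSeq start within 100 bp of the locus start was found for 92 loci. The motif, searched on both strands and with no other motif searched, was present in 26 of 28 promoters of band-named loci (92.9%) and in 46 of 64 of gene-named loci (71.9%), against 74.2% of the 32851 promoters in the table. At least 3 matches were held by 39.3% of the band-named promoters, 10.9% of the gene-named ones and 19.3% of all. Only 28 of the 94 band-named loci were matched, and only 5 of the 40 with a difference above 0, so these are poorly covered. Among the matched band-named loci the motif was present at 5 of 5 with a difference above 0 and at 21 of 23 with a difference below 0 (91.3%). As the motif was present at nearly all of these promoters, its presence could not have separated them, and the sign rests on library sums. The counts describe letters in a window and were not tested.

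Estimated counts over the loci summed to 29039671 and 37660202 in the small RNA libraries and to 1406947 and 1842625 in the long RNA libraries. The locus with the fewest counts, 1-qE2.3-2.1, spans 0.123 kb and had 93 and 128.5 counts in small RNA and 23 and 20 in long RNA. Its counting error was 10.4% and 8.82% in small RNA and 20.9% and 22.4% in long RNA. No molecular identifiers are named, so such errors cover counting only. Log2 CPM (counts of a locus scaled to a common library size, here scaled to the sum over these loci) correlated between replicates with r = 0.999 in small RNA and r = 0.997 in long RNA across all loci. The difference formed from the libraries numbered 2 departed from that of the libraries numbered 1 by a median of 0.0839 on the log2 scale, from -0.46 at pi-Atxn1l.1 to 0.68 at 1-qE2.3-2.1. This is small beside the spread among loci, which ran over 12.33 log2 units. As testis was measured in bulk, fewer cells of a type and less RNA per cell cannot be told apart.

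Small and long RNA were distributed very differently over the loci. Of all loci tested, 40 took a higher share of small RNA (19.2%) and 163 a lower one (78.4%), and together they made up 97.6% (adjusted p below 0.05 by Benjamini-Hochberg, edgeR's quasi-likelihood test). By more than 2-fold, 19 loci were higher (9.13%) and 138 lower (66.3%). At 205 loci (98.6%) both small RNA libraries lay on 1 side of both long RNA libraries. The median difference over all loci was -2.66, a small RNA share 6.31-fold below the long RNA share, with an interquartile range from -5.57 to -0.37. With so many loci past the threshold, the size of a difference and its place among the others tell more than the call.

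The zero point of this scale depends on how the assays are set beside each other. With the TMM method all differences rose by 2.10 and with the RLE method by 2.67, since both assume that most loci do not differ. Of all calls, 19.7% were higher with library sums, 45.2% with TMM (90 higher, 109 lower) and 50.2% with RLE (103 higher, 102 lower). A locus between -2.67 and 0 therefore changed sign under at least one of them, and the sign of any value in that range is relative to library sums. The order of the loci and the distances between groups of loci do not depend on it, and groups of loci are set beside the median of all loci. The libraries give shares, not molecules, so the number of piRNAs made per precursor was not measured.

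**Figure D1:**
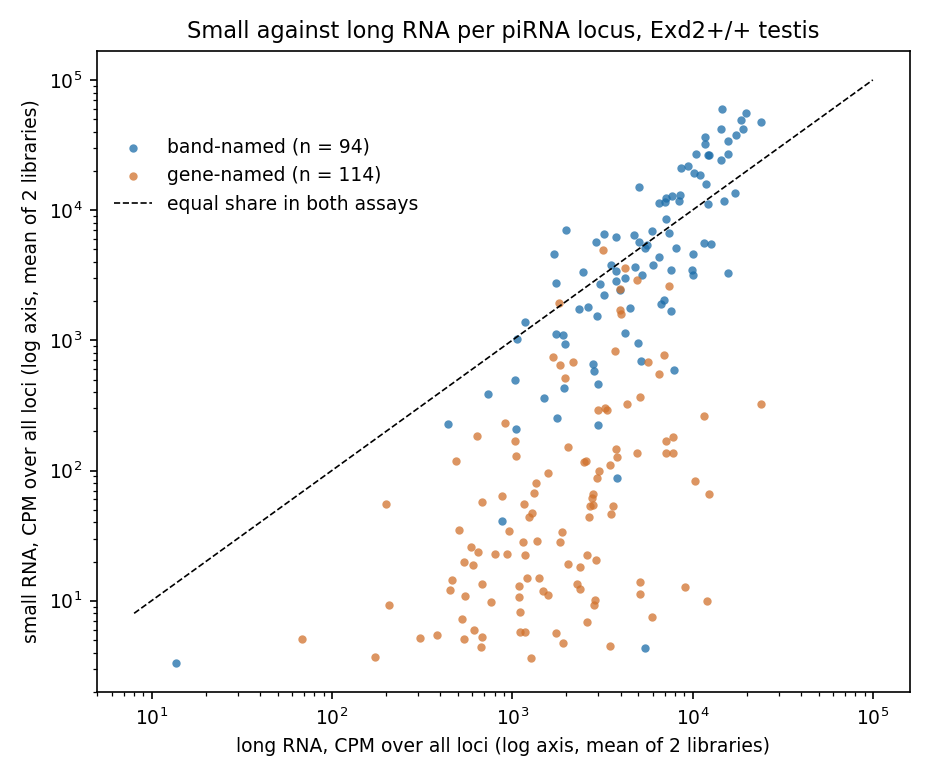
Mean CPM of each locus in long RNA (horizontal, log axis) against small RNA (vertical, log axis), n = 2 libraries each, with band-named and gene-named loci in different colours. Band-named loci lie near and above the line of equal shares at high long RNA, while most gene-named loci lie far below it.

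The higher values belonged almost wholly to the band-named loci. Their median was -0.27 with library sums and turned positive with TMM (1.83) and RLE (2.40), and single loci ran from -10.30 to 2.03. Among the 94, 39 were higher in small RNA (41.5%, against 19.2% of all loci), 51 lower (54.3%, against 78.4%) and 4 not called. Of the 39, 19 were higher by more than 2-fold. The gene-named loci had a median of -5.38, a small RNA share 41.6-fold below the long RNA share, which stayed negative with TMM (-3.28) and RLE (-2.71). Among these 114, 1 was higher (0.877%), 112 lower (98.2%) and 1 not called. By more than 2-fold, 109 were lower (95.6%, against 66.3% of all loci). The medians lay 5.11 log2 units apart, or 34.5-fold, on any of these scales. Above the median of all loci were 86 of the 94 band-named and 18 of the 114 gene-named loci. Below -5 were 2 band-named and 65 gene-named loci.

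The name types were farther apart in small RNA than in long RNA, and band-named loci had the higher medians in both. Per kilobase of span, the median band-named locus had 238 CPM in small RNA and the median gene-named locus 1.52 CPM. In long RNA the same medians were 284 and 44.9 CPM per kilobase. Band-named loci took 96.6% ± 0.0616 of small RNA counts and 66.5% ± 0.358 of long RNA counts (SD, n = 2 each). Both small RNA libraries lay above both long RNA libraries, but 2 against 2 libraries cannot give an exact two-sided permutation p below 0.333, the value found. Spans include introns where a locus has them, and annotated exons covered a median of 5.08% of a band-named span and 20.4% of a gene-named span. The band-named figure includes 26 loci over no annotated gene, which have no annotated exons, so it does not measure introns.

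The gap was also seen among loci grouped by their amount of long RNA. The loci were divided into quartiles by mean long RNA CPM, and the median small RNA CPM was taken for each name type. The match is coarse, as the lowest quartile ran from 13.6 to 1348 CPM of long RNA. From the lowest quartile up, median long RNA was 957, 2171, 4894 and 11633 CPM for band-named loci. For gene-named loci it was 684, 2229, 3957 and 8442 CPM. In the lowest quartile it was 307 for 8 band-named loci and 16.9 for 44 gene-named loci. In the highest quartile, above 6923 CPM of long RNA, it was 14663 for 40 band-named loci and 154 for 12 gene-named loci. In the quartiles between them the band-named medians were 1112 and 3286 CPM and the gene-named medians 39.0 and 295 CPM. The band-named medians of small RNA thus stood in the order of the quartiles, while the gene-named median of the highest quartile lay below that of the one before it. The differences between quartiles were not tested. Across loci, log2 CPM in small and long RNA correlated with r = 0.77 over the 94 band-named loci (rho = 0.79) and r = 0.49 over the 114 gene-named loci (rho = 0.51). The points of each correlation share the same 4 libraries.

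Small RNA was concentrated in few loci. In each small RNA library 13 loci held 50% of the counts and 50 loci held 90%, against 38 and 125 loci in each long RNA library. The 10 richest loci held 43.7% and 43.8% of the counts in the small RNA libraries and 18.8% and 18.6% in the long RNA libraries. All 10 of the richest in small RNA were band-named, and 6 were also among the 10 richest in long RNA. The exception among the 10 richest in long RNA was 1 gene-named locus, pi-1700016M24Rik.2, which ranked 1 in long RNA and 104 in small RNA.

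**Figure D2:**
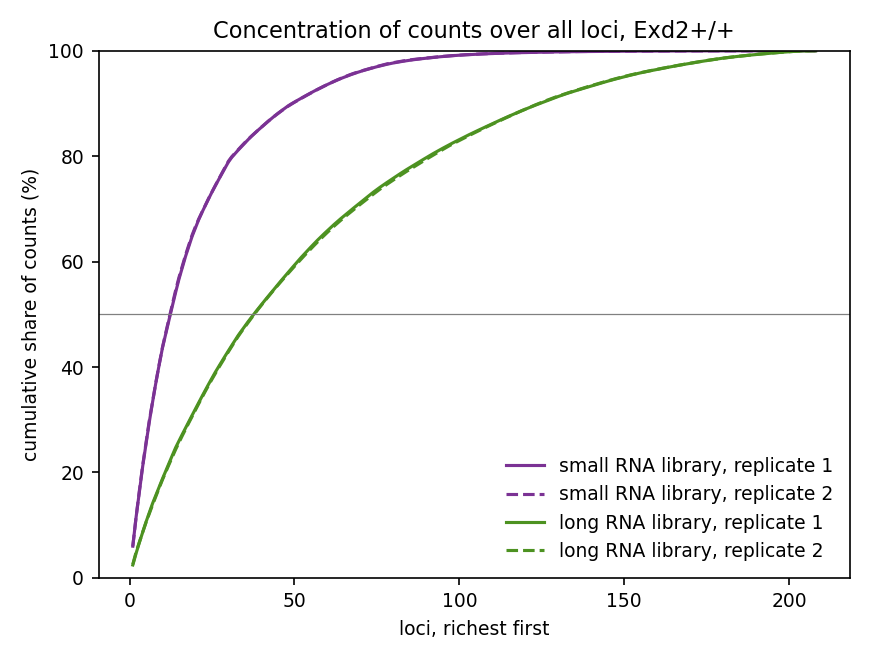
Cumulative percent of a library's counts (vertical) against the number of loci, taken from the richest down (horizontal), for the 2 small RNA and 2 long RNA libraries. The small RNA curves reach 50% at 13 loci and the long RNA curves at 38 loci.

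The 10 highest differences ran from 1.37 to 2.03 and were all at band-named loci (largest adjusted p 5.83e-10, edgeR quasi-likelihood). These loci and the 10 lowest were chosen among called loci whose libraries did not overlap, so their p-values and the absence of overlap follow from the choice. The highest was 18-qE1-36451.1 (minus strand, 37.015 kb), whose band holds the precursor known as pi18. It had 60059 and 59941 CPM in small RNA and 15001 and 14310 CPM in long RNA, and was the richest of all loci in small RNA and at rank 12 in long RNA. The small RNA libraries lay far above the long RNA libraries and differed little from each other, for a difference of 2.03 ± 0.04 (SE of the fit) or 4.10-fold. Next came 1-qD-4525.1 (chr1:92992344-92997067, minus strand, no annotated gene), with 7163 and 6849 CPM in small RNA and 1884 and 2077 CPM in long RNA, a difference of 1.82 ± 0.07. Its values were a small part of those at 18-qE1-36451.1 in both assays, so a high difference was not limited to the richest loci. The third, 5-qG3-23659.2 (chr5:149790071-149831589, minus strand), had 36724 and 35926 CPM in small RNA and 12128 and 11192 CPM in long RNA, a difference of 1.64 ± 0.04.

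Short loci were among these. The locus 8-qC5-8200.1 (chr8:92189459-92194416, plus strand, no annotated gene) spans 4.958 kb and had 15705 and 14489 CPM in small RNA and 5016 and 5055 CPM in long RNA, a difference of 1.58. Per kilobase it held 3045 CPM of small RNA, against 1621 CPM at 18-qE1-36451.1. The locus 11-qE1-3997.2 spans 5.705 kb and had a difference of 1.44. The others were 6-qF3-28913.1 (1.55), 2-qE1-35981.2 (1.48), 9-qA5.3-24188.1 (1.47), 9-qC-31469.1 (1.41) and 15-qD3-14639.3 (1.37), with spans from 22.525 to 68.004 kb.

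The 10 lowest differences ran from -10.30 to -8.45, and 9 of them were at gene-named loci (largest adjusted p 9.00e-14, edgeR quasi-likelihood). The lowest was a band-named locus, 2-qE5-4.1 (chr2:120692588-120715137, plus strand), which lies over Stard9, a gene of a kinesin-family protein, with 55.6% of its span in annotated exons. It had 4.48 and 4.15 CPM in small RNA and 5023 and 5859 CPM in long RNA, a difference of -10.30 ± 0.13 or 1259-fold. Its name places it with the band-named loci, but its value lies with the gene-named ones. At pi-Lpp.1 (chr16:24393445-24992575, plus strand), over the gene of a LIM-domain protein of cell adhesions, small RNA was 11.4 and 8.57 CPM and long RNA 12021 and 11987 CPM. This was a difference of -10.25 ± 0.12 or 1214-fold, at a locus that ranked 20 in long RNA and 185 in small RNA. It was not called with edgeR's default option (-10.26, adjusted p = 1.0), although the size of the difference hardly changed. That option gave a negative F at 6 loci.

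The other gene-named loci at this end lie over genes of varied function. At pi-Rplp1.1 (1.257 kb), over the gene of a protein of the large ribosomal subunit, small RNA was 3.96 and 5.02 CPM and long RNA 3340 and 3661 CPM, a difference of -9.62. At pi-Hist1h1a.2 (0.748 kb), over a linker histone gene, small RNA was 14.4 and 13.5 CPM and long RNA 6129 and 4125 CPM, a difference of -8.49 ± 0.19. The long RNA libraries were further apart there than at the loci above, yet both lay far above the small RNA libraries. At pi-Ankrd11.1, over the gene of a chromatin regulator, and pi-Nsd1.1, over that of a histone H3K36 methyltransferase, the differences were -9.65 and -8.84. At pi-Eya3.1, over the gene of a phosphatase and transcriptional coactivator, and pi-Ssh1.1, over that of a cofilin phosphatase, they were -8.56 and -8.45. The others were pi-Luzp1.1 (-9.49) and pi-Uhrf1bp1.1 (-8.64).

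**Figure D3:**
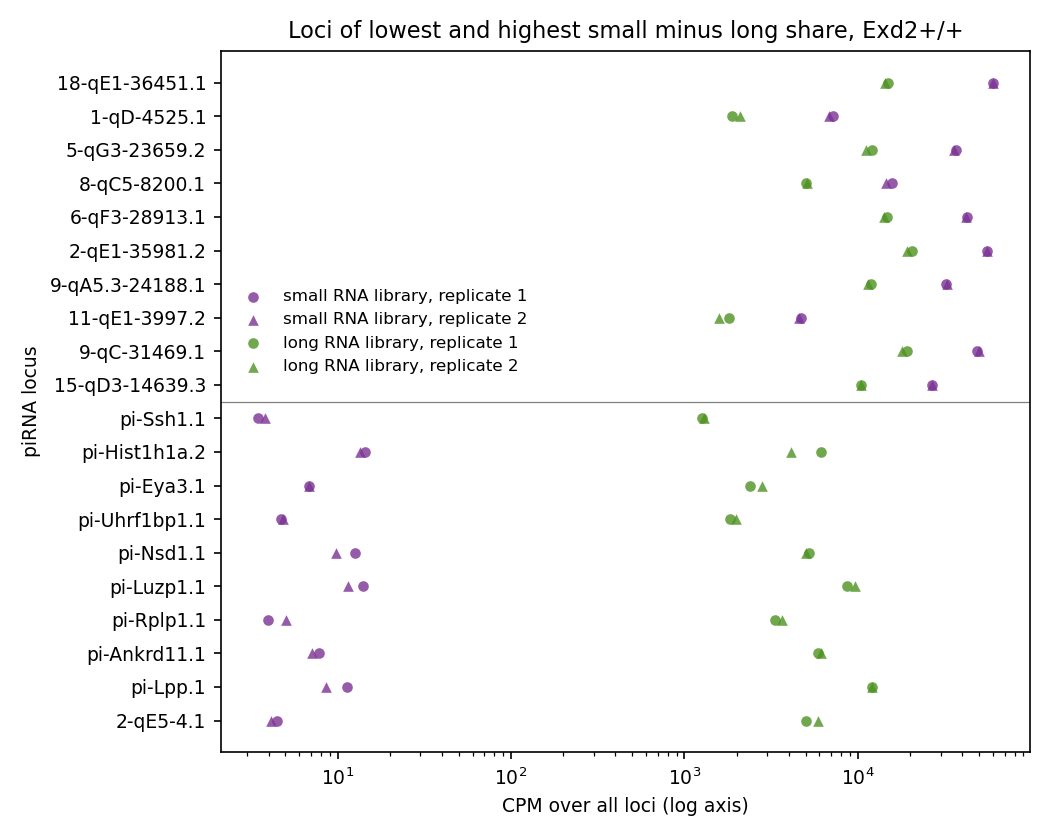
CPM in each of the 4 libraries (log axis) for the 10 highest and the 10 lowest differences. In the upper loci the small RNA points lie above the long RNA points by up to 4.10-fold, and in the lower loci they lie below by up to 1259-fold. Loci were chosen among those whose libraries did not overlap.

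Loci near equal shares were few. The 5 that were not called were 7-qB5-6255.1 (a difference of -0.04), 8-qA4-332.2 (-0.04), 2-qG3-1029.1 (-0.08), pi-Zfp382.1 (0.09) and 6-qC3-2394.2 (0.11). Small RNA at 7-qB5-6255.1 was 5318 and 5509 CPM and long RNA 5533 and 5582 CPM. Both small RNA libraries lay just below both long RNA libraries there, and the edgeR quasi-likelihood test gave an adjusted p = 0.483. Libraries of the assays overlapped at 2-qG3-1029.1, pi-Zfp382.1 and 6-qC3-2394.2.

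A few gene-named loci came near the band-named values. They are named here after their values were seen. The 1 higher in small RNA was pi-Gm5878.1 (chr6:85111415-85126094, minus strand), with 4956 and 4872 CPM in small RNA and 3188 and 3194 CPM in long RNA, a difference of 0.62 ± 0.06. GENCODE does not class that gene as protein-coding. It is followed by pi-Zfp382.1, over a zinc finger protein gene, by pi-1700006A11Rik.2 (-0.22) and by pi-Tbl2.3 (-0.68). At pi-Eif2c2.1, over Ago2, the gene of the Argonaute protein that cuts targets of small interfering RNAs, small RNA was 1772 and 1676 CPM and long RNA 3794 and 4107 CPM, a difference of -1.20. At pi-Cbl.1, over the gene of a ubiquitin ligase, small RNA was 2606 and 2600 CPM and long RNA 7265 and 7538 CPM, a difference of -1.51. Among the 114 gene-named loci, 6 lay above the lower quartile of the band-named loci.

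At the other end, the band-named loci after 2-qE5-4.1 were 17-qC-59.2 (-5.45), 7-qD2-40.1 (-4.44) and 10-qC1-117.1 (-3.75). The locus 17-qC-59.2 (chr17:50237658-50247541, plus strand) had 76.4 and 98.3 CPM in small RNA and 3678 and 3903 CPM in long RNA. At 7-qD2-40.1 small RNA was 42.1 and 39.4 CPM and long RNA 893 and 873 CPM. Only 2-qE5-4.1 and 17-qC-59.2 of the band-named loci lay below the gene-named median.

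Sorting the loci by the genes under them gave nearly the same division as the names, which follows largely from the naming. Of the 114 gene-named loci 113 lie over protein-coding genes, and all 26 loci over no gene are band-named. The 26 loci over no annotated gene of their strand (GENCODE M21, GRCm38) had a median of 0.03, with 12 higher and 11 lower. The 60 loci over genes of other kinds had a median of -0.56, with 22 higher and 37 lower. The 122 loci over protein-coding genes had a median of -5.19, with 6 higher and 115 lower. Relative to all loci these medians stood at 2.69, 2.10 and -2.53. In the same order 46.2%, 36.7% and 4.92% were higher, against 19.2% of all loci. Lower were 42.3%, 61.7% and 94.3%, against 78.4% of all loci.

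Where name and annotation disagreed, most values went with the name. Of the 122 loci over protein-coding genes 9 were band-named, and their median was 0.76, against -5.41 for the 113 gene-named ones. Among the 9 were 2-qE1-35981.2 (over Chst1, a carbohydrate sulfotransferase gene; 1.48) and 9-qA5.3-24188.1 (over Cyp19a1, the gene of aromatase; 1.47). The latter lies in the span of the gene with 0% of its length in annotated exons, and had 32229 and 32496 CPM in small RNA and 11967 and 11410 CPM in long RNA. The lowest of the 9 were 2-qE5-4.1 over Stard9, 11-qB1.3-590.3 (-2.38) and 6-qD1-2831.2 over H1fx, a linker histone gene (-1.53). Of the 9, 8 lay above the median of all loci (-2.66), and 2-qE5-4.1 was the exception.

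**Figure D4:**
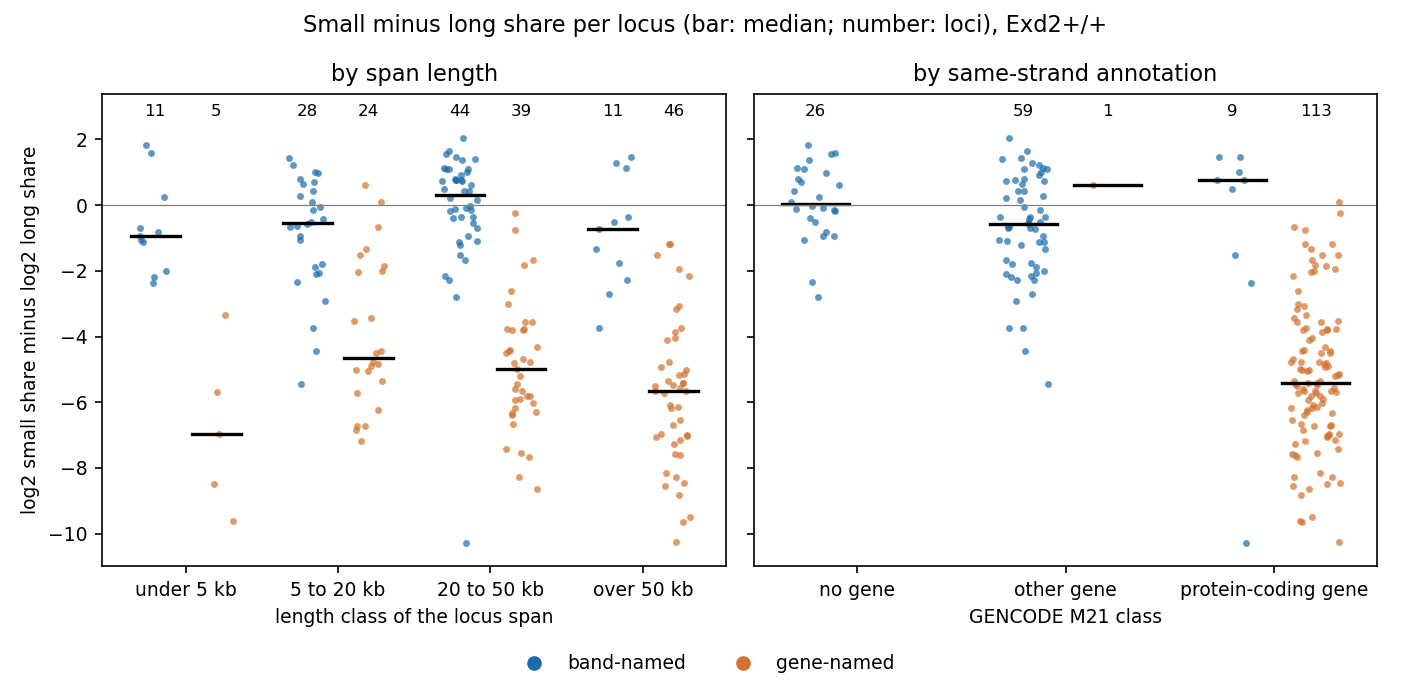
Difference of each locus (log2 small share minus log2 long share) by length class of the span and by same-strand annotation, with band-named and gene-named loci apart. Bars are medians and the numbers over the points count the loci. Band-named medians lie above gene-named ones in each length class.

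By length of the span, over all loci the medians were -1.57 under 5 kb (16 loci), -1.87 from 5 to 20 kb (52), -1.66 from 20 to 50 kb (83) and -5.41 above 50 kb (57). Of the 57 longest loci, 46 were gene-named. Taken by the length of merged exons instead, with the span kept for the 28 loci without exons, the medians were -1.06 (81 loci), -4.91 (106), -0.08 (19) and -2.26 (2), so the classes from 5 to 20 kb and above 50 kb changed sides of the median of all loci. Among the band-named loci the medians by class were -0.93, -0.54, 0.32 and -0.73, and among the gene-named loci -6.97, -4.65, -4.98 and -5.66. The shortest classes held 11 and 5 loci, and differences between classes were not tested. The correlation of the difference with log2 span was r = -0.22 over all loci, 0.12 over the band-named and -0.13 over the gene-named loci, so its sign was not the same in the name types. With exon length it was -0.48 over the 180 loci that have exons, but -0.26 over 66 band-named and -0.03 over 114 gene-named loci. The joint value was thus stronger than that within either name type. In band-named loci log2 span correlated with log2 long RNA CPM (r = 0.68) and with log2 small RNA CPM (r = 0.46).

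By strand, the 100 plus-strand loci had a median of -2.31, with 19 higher and 78 lower. The 108 minus-strand loci had a median of -2.86, with 21 higher and 85 lower. Higher were 19.0% of plus-strand and 19.4% of minus-strand loci, near the 19.2% of all loci. Within band-named loci the medians were -0.14 (44 plus) and -0.38 (50 minus), and within gene-named loci -5.53 (56 plus) and -5.02 (58 minus), so the order of the strands was not the same in the name types. The strands were not tested against each other.

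The 5 bands that hold the pachytene loci known as pi2, pi6, pi9, pi17 and pi18 (2-qE1, 6-qF3, 9-qC, 17-qA3.3 and 18-qE1) contain 10 of the loci. Together these took 29.5% ± 0.00197 of small RNA and 14.1% ± 0.453 of long RNA (SD, n = 2 each). Their median was 0.88, or 3.54 above that of all loci, with 6 higher (60%) and 4 lower (40%). Of all loci 19.2% were higher and 78.4% lower. All 10 are band-named, and band-named loci as a whole had a median of -0.27, with 41.5% higher and 54.3% lower. At 17-qA3.3-26735.1 small RNA was 47678 and 47910 CPM and long RNA 24402 and 23285 CPM, a difference of 1.00. At 2-qE1-35981.2 small RNA was 55207 and 55663 CPM and long RNA 20606 and 19237 CPM. Both loci were thus rich in either assay. The 4 lower ones were 18-qE1-1295.2 (-1.80), 6-qF3-1063.1 (-1.34), 6-qF3-3040.2 (-1.12) and 6-qF3-8009.1 (-0.36), and all 4 became positive with TMM and RLE.

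Divergent pairs, taken as loci on opposite strands that point away from each other with starts within 5 kb, numbered 12 and had starts 38 to 383 bp apart. Their 24 loci had a median of 0.85, with 18 higher (75%, against 19.2% of all loci) and 6 lower (25%, against 78.4%). They took 48.3% ± 0.0518 of small RNA and 26.5% ± 0.287 of long RNA (SD, n = 2 each). All but 1 of these loci were band-named. Among band-named loci, the 23 in divergent pairs had a median of 0.92 (18 higher, 5 lower) and the 71 others -0.57 (21 higher, 46 lower), the latter median being positive with TMM and RLE.

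The arms of a pair often differed more in small RNA than in long RNA. The richer arm held a median of 3.45 times the poorer one in small RNA and 1.69 times in long RNA, and 11 of 12 pairs were more unequal in small RNA. Wider differences in small RNA were not particular to pairs. Across all loci the SD of log2 CPM was 4.01 in small RNA and 1.64 in long RNA. Across band-named loci it was 2.69 and 1.52. In 10 pairs the same arm was the richer in both assays, and in 9 the longer arm had the higher difference. The median gap between the differences of the arms was 1.08, from 0.05 to 7.56.

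The widest gap was between pi-1700016M24Rik.2 (chr15:74606028-74636770, minus strand) and 15-qD3-14639.3 (chr15:74636387-74658911, plus strand). The former had 336 and 318 CPM in small RNA and 22209 and 25635 CPM in long RNA, a difference of -6.19 ± 0.08. This difference was not called with edgeR's default option (-6.20, adjusted p = 1.0), which gave a negative F at 6 loci. The latter had 26897 and 26889 CPM in small RNA and 10416 and 10363 CPM in long RNA, a difference of 1.37 ± 0.04. The arm with more long RNA was thus the one with less small RNA, in every library. These loci overlap at their starts on opposite strands, and whether counting used strand is not given in the sources used here, so reads of the shared stretch are uncertain.

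In the 18-qE1 pair, 18-qE1-36451.1 held 31.3 times the small RNA of 18-qE1-1295.2, which had 1906 and 1928 CPM in small RNA and 6749 and 6637 CPM in long RNA. The log2 ratio of the arms was 4.98 and 4.96 in small RNA and 1.15 and 1.11 in long RNA. In the 6-qF3 pair, 6-qF3-8009.1 had 13794 and 13063 CPM in small RNA and 17575 and 16921 CPM in long RNA, while 6-qF3-28913.1 had 42509 and 41810 CPM in small RNA and 14696 and 14119 CPM in long RNA. The arm richer in small RNA was again the poorer one in long RNA. Other pairs with a wide gap were 7-qD1-654.1 and 7-qD1-19431.2 (-2.09 and 0.78) and 7-qF3-3125.5 and 7-qF3-246.1 (0.44 and -2.35). The arms were closest at 4-qB3-639.1 and 4-qB3-277.1, with differences of 1.02 and 0.97. The exception among the 12 was 5-qF-14508.2 with 5-qF-14224.2, whose arms were 1.12-fold apart in small RNA and 1.54-fold in long RNA.

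**Figure D5:**
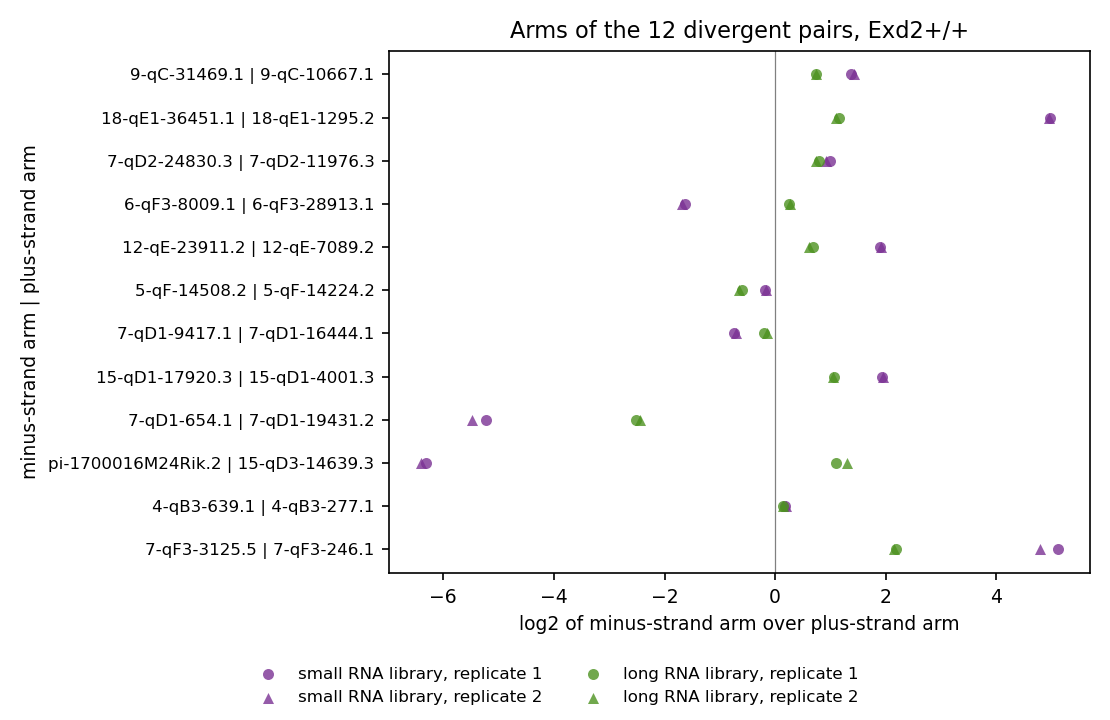
Log2 ratio of the minus-strand arm to the plus-strand arm for the 12 divergent pairs, in each small RNA and long RNA library. Small RNA points lie farther from 0 than long RNA points in 11 of the pairs, and on the opposite side of 0 in the pairs of pi-1700016M24Rik.2 and 6-qF3-8009.1.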

How the data were processed

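Testis RNA of adult Exd2+/+ mice was sequenced as small RNA and as rRNA-depleted long RNA, with 2 libraries each. The authors deposited estimated counts per locus for 208 piRNA loci, not scaled to library size and mostly not whole numbers (1.44% to 12.5% of a library's values were whole within 1e-06). The tools cutadapt, STAR and edgeR and the GRCm38 build are named, per the submitters' processing notes. How reads were assigned to loci (counter, strand, reads with several alignments) is not given in the sources used here, so counts of repeated sequence are less certain. Columns were matched to samples by the codes in the labels, and 0 were left unmatched.

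The tables were joined on locus name, and each library was scaled to its sum over the loci (CPM). Estimated counts were rounded and tested for small against long RNA in R 4.3.3 with edgeR 4.0.16 (glmQLFit with the legacy option, glmQLFTest, library sums with no further scaling, assay as the only term). P-values were adjusted over all 208 loci by the Benjamini-Hochberg method, and the threshold was 0.05. The SE is the fitted log2 change divided by the square root of F. Loci were annotated by same-strand overlap of any length with GENCODE M21 genes, and promoters came from RefSeq (GRCm38.p6). Of the 114 gene-named loci 105 overlapped a gene of that symbol, 7 a gene that formerly had it, and 2 found no match.

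Alternatives were TMM and RLE scaling, sums without the 10 loci richest in long RNA, other count filters, edgeR's default option, DESeq2 1.42.0, limma 3.58.1 with and without voom, a replicate block, each library left out, a threshold of 0.01, no overlapping loci and exon length. The rule for named loci took the 10 highest and 10 lowest differences among called loci with no overlap of the libraries, the 10 richest in each assay, the 5 listed bands, the 2 loci nearest 0, the arms of the 5 richest divergent pairs and at most 4 examples per group, in all 51 loci. Loci, groups and rule were chosen with earlier results of these data known. P-values measure only the spread between these libraries.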

Additional observations from a re-analysis of the deposited data

How the results depend on the processing

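The median of all loci was -0.56 with TMM, 0.0090 with RLE and -2.42 with sums that left out the 10 loci richest in long RNA. The band-named median was then 1.83, 2.40 and -0.031, and the gene-named median -3.28, -2.71 and -5.14. TMM gave 90 higher loci, and RLE 103 higher and 102 lower. Of 51 named loci, 10 changed sign with TMM and 12 with RLE. With TMM and RLE the values were 1.74 and 2.30 at 6-qF3-8009.1, 0.30 and 0.86 at 18-qE1-1295.2, 0.75 and 1.32 at 6-qF3-1063.1, 0.98 and 1.54 at 6-qF3-3040.2, 2.06 and 2.63 at 7-qB5-6255.1, and 2.06 and 2.62 at 8-qA4-332.2. They were 1.97 and 2.54 at 12-qE-7089.2, 1.87 and 2.44 at pi-1700006A11Rik.2, 1.33 and 1.90 at pi-Tmem194.3, and 0.59 and 1.16 at pi-Cbl.1. With RLE alone, 13-qB1-1517.1 was at 0.40 and 7-qF3-246.1 at 0.33. These reversals follow from the shift of the zero point. With a minimum of 100 counts in 4 libraries the band-named median was -0.18, and, relative to all loci, that of loci under 5 kb was 1.5 and that of loci over no gene 2.66.

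With the replicate number as a block, 40 loci were higher and 163 lower, as without it. The deviations of same-numbered libraries correlated with r = 0.20 across all loci, but with 2 pairs the libraries share only a number. For the pair numbered 1 alone and the pair numbered 2 alone, the median of all loci was -2.58 and -2.73. Relative to all loci, the medians were 0.83 and 1.35 under 5 kb, 2.06 and 2.15 over other genes, and 3.41 and 3.62 in divergent pairs. The pair numbered 1 gave 0.21 for the plus strand, and the pair numbered 2 gave 1.11 from 20 to 50 kb, -2.66 above 50 kb and -0.91 outside divergent pairs.

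By the length of merged exons, with the span kept for the 28 loci without exons, the medians relative to all loci were 1.59 under 5 kb (81 loci), -2.25 from 5 to 20 kb (106), 2.58 from 20 to 50 kb (19) and 0.39 above 50 kb (only 2). Over the 180 loci with exons, the correlation of the difference with exon length was r = -0.48. Within band-named loci it was r = -0.26 and within gene-named loci r = -0.03. The cause was not tested. With span it was r = -0.22 over all loci (rho = -0.26 by Spearman's method). The values with span were r = 0.12 within band-named loci (rho = 0.19) and r = -0.13 within gene-named loci (rho = -0.22). The correlation of small with long RNA was r = 0.69 over all loci (rho = 0.70 by Spearman's method). It was r = 0.77 within band-named loci (rho = 0.79) and r = 0.49 within gene-named loci (rho = 0.51). Without the richest locus of the assay, band-named loci took 96.4% of small RNA and 68.1% of long RNA.

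Leaving out 1 library at a time gave 39 to 40 higher and 160 to 162 lower loci. The band-named median was then -0.27 to -0.22 and the gene-named median -5.44 to -5.31. Relative to all loci, the medians were -2.84 to -2.58 for gene symbols other than RIKEN or Gm names, 0.98 to 1.09 from 20 to 50 kb, -2.84 to -2.63 above 50 kb and -2.67 to -2.42 over protein-coding genes. DESeq2 and limma-voom gave 40 higher and 163 lower loci, and edgeR's default option 37 and 157, with a negative F at 6 loci. Among the named loci that option lost the calls of pi-Lpp.1 (-10.26) and pi-1700016M24Rik.2 (-6.20). Counting error limits the loci of few counts, foremost 1-qE2.3-2.1.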
